A study of Mus musculus with 16 samples.

Results

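Pre-pro-B cells, fraction A (Fr.A) of the Hardy scheme of B cell development, were compared between fetal liver and adult bone marrow of BALB/c mice. The comparison rests on the 8 Fr.A arrays among the 16 of the series, 4 from fetal liver and 4 from bone marrow, taken by their labels. The other 8 arrays hold fraction B/C (Fr.B/C), the pro-B stage that follows, and served to estimate the spread and to ask where the difference between tissues depends on the stage. The labels name no treatment, transgene or targeted allele for any group. Each bone marrow sort pooled cells flushed from femur and tibia of 16 female adult mice. Each fetal liver sort pooled the livers of the embryos of 1 mouse at gestation day 16, on average 8 embryos. There were 4 sorts of either tissue, and each sort gave 1 sample of Fr.A and 1 of Fr.B/C, so the 4 arrays of a group are separate pools of animals. Total RNA (100 ng) was amplified and hybridised on 2-colour Agilent arrays against a common reference, a mixture of RNA from 6 cell lines named EL4, J558, P388d, DN3, RS2 and R1. Lin28b and Arid3a stand in the title of the series, which is on fetal B lymphopoiesis, and this group pair contrasts the fetal with the adult form of the earliest of the B-lineage stages sampled.

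Pre-pro-B cells are the first step at which progenitors turn towards the B lineage, before the heavy chain locus is fully rearranged. In the fetus they arise in the liver, divide quickly and give rise to a large share of innate-like B-1 cells, with antigen receptors that carry few added nucleotides. In the adult they arise in the bone marrow and feed conventional B-2 cells. The RNA-binding protein Lin28b marks fetal blood progenitors. It blocks the maturation of let-7, a family of microRNAs that bind messenger RNAs through a shared seed and are known to repress Lin28b itself, Hmga2, the Igf2bp genes and Arid3a.

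The microRNAs were not measured on these arrays. Because Lin28b and several genes described here are known through let-7, mature let-7 sequences are shown from the RefSeq annotation of GRCm38.p6, with the seed (bases 2 to 8) in capitals.
let-7a-5p: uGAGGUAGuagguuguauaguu
let-7b-5p: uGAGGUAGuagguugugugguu
let-7g-5p: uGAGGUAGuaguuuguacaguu
let-7i-5p: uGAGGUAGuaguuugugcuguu
miR-98-5p: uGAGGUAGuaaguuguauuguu
Of 11 mature names of the family in that table, 10 carry the seed GAGGUAG and let-7j alone carries GAGGUAU. Lin28 proteins are known to bind a GGAG stretch in the terminal loop of let-7 precursors, and the letters GGAG (this strand only) occur in 9 of the 12 hairpins of the table. The hairpin of let-7g (chr9:106178840-106178927, plus strand) is shown with these letters in capitals.
Mirlet7g: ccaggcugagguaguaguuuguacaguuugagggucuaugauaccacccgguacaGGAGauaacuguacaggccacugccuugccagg
A match of these letters is a description of the annotation and not a measured binding site.

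Values are log2 ratios of sample over reference, so 0 means the same level as in the cell line mixture. A change is the log2 of fetal liver over bone marrow with its standard error (SE) from limma, and genes with an adjusted p below 0.05 are said to have passed. On the Fr.A arrays 53.1% to 68.4% of probes were well above background, 0.219% to 0.508% were saturated, and the median sample signal ran from 71.2 to 121 (intensity). Arrays of a group correlated across genes at r = 0.909 to 0.972 in bone marrow and 0.914 to 0.981 in fetal liver. Arrays 1 and 2 stood apart from arrays 3 and 4. The mean square between these sets was 7.37 times the remaining mean square in bone marrow and 2.80 times in fetal liver, with the dye balanced within each set. The bone marrow arrays were scanned in 3 sessions and the fetal liver arrays in 2, none of which held both tissues, so session and tissue cannot be told apart, and neither can tissue and age.

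A check of the labels came first. The markers of the pre-pro-B stage fixed for this purpose (Ptprc, Spn, Cd93, Flt3, Il7r, Ly6d, Rag1, Ebf1 and Cd79a, with no probe matched to Igll1) were well above background on all 8 arrays. The bone marrow donors are labelled female, yet 3 Y-linked genes were well above background on all 4 bone marrow Fr.A arrays. Eif2s3y read 4.1, 4.44, 2.44 and 2.46 on the bone marrow arrays and 3.71, 3.18, 4.55 and 4.25 on the fetal liver arrays. Ddx3y read 1.28, 1.38, -0.55 and -0.63 on the bone marrow arrays and 0.27, -0.12, 1.46 and 1.17 on the fetal liver arrays, and Kdm5d gave 0.71, 0.81, -0.21 and -0.33 in bone marrow against 0.73, 0.52, 1.82 and 1.79 in fetal liver. All 3 were higher on bone marrow arrays 1 and 2 than on 3 and 4, and the bone marrow Fr.B/C arrays showed the same order, with Eif2s3y at 4.51, 4.88, 3.26 and 3.51. Xist, transcribed from the inactive X chromosome, read 6.85, 7.95, 8.37 and 8.49 on the bone marrow arrays and 5.76, 6.09, 6.24 and 6.36 on the fetal liver arrays, a change of -1.80 ± 0.30 (adjusted p = 0.00032). Its probes gave changes from -1.80 to -0.12. Probes of Ddx3y and Kdm5d may also bind transcripts of their X-linked copies. What the Y-linked signal on these arrays comes from was not tested. The results over all genes are therefore also given from either array set alone, the Y-linked signal of bone marrow being lower in the second.

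Fetal liver and bone marrow Fr.A cells differed at 6390 of 21584 genes or unnamed transcripts tested (29.6%). Of these, 2662 were higher in fetal liver (12.3% of those tested) and 3728 lower (17.3%), and the median change over all tested was -0.02. At least a 2-fold change was seen in 1001 (4.64%), 310 higher and 691 lower. The values of the 4 and 4 arrays did not overlap for 5670 (26.3%). Counts in the gene lists below are to be read beside the shares of 12.3% higher and 17.3% lower. Some lists lie near or under these shares. The higher share of the passing genes, 41.7%, was 22.9% when arrays were centred on their median in place of loess. The second array set alone, arrays 3 and 4 of every group, passed 10019 genes, 4474 of them higher and 5545 lower. The first set alone passed 5737. Of the 6390 passing genes, 5826 also passed in the second set alone and 4349 in the first, all in the same direction. The 168 named genes that passed were chosen from a fit that holds both sets, so their agreement is not independent support. Genes given by group means alone are not counted among them. All 168 passed with the same direction in the second set alone and 161 in the first. Cd5, Kit, Myc, Mycn, Poll, Psmb10 and Tarbp2 did not pass in the first. As the samples are pools of sorted cells, fewer cells of a type and less RNA per cell cannot be told apart.

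**Figure D1:**
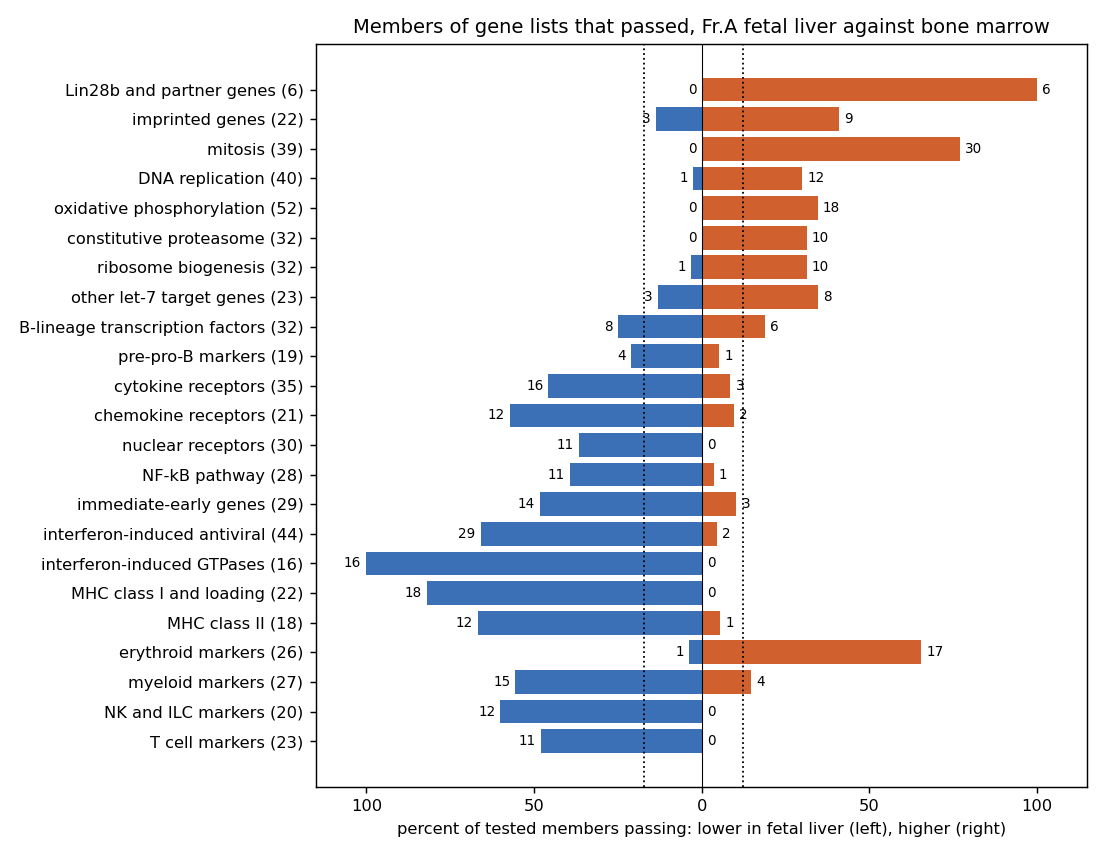
Share of the tested members of each gene list that passed in Fr.A, higher in fetal liver to the right and lower to the left, with the number of tested members in parentheses, the counts at the bar ends, and dotted lines at the shares over all genes tested (12.3% higher, 17.3% lower). Mitosis, with 30 of 39 members higher, stands on one side, and the interferon-induced GTPases, with 16 of 16 lower, on the other.

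Lin28b and the genes linked with it in fetal blood were higher in the fetal cells. All 6 tested members of that list passed as higher, with a median change of 3.18, but the title names Lin28b and Arid3a, so its direction is not independent evidence. Lin28a, the paralog of Lin28b, had a probe that did not meet the filter on dim probes and was not tested. Lin28b itself read -0.57, -0.85, -1.09 and -1.1 on the bone marrow arrays and 2.28, 2.26, 2.80 and 2.64 on the fetal liver arrays. On the bone marrow arrays its signal was not well above background, while the fetal arrays lay within a narrow band. The change was 3.40 ± 0.15 (adjusted p = 3.9e-10), at least 10.4-fold. Its 3 probes ranged from 0.22 to 3.40.

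The 3 Igf2bp genes encode RNA-binding proteins that stabilise messenger RNAs in embryonic tissue. Igf2bp3 read -1.45, -1.69, -2.23 and -2.20 on the bone marrow arrays and 2.35, 2.36, 2.33 and 2.29 on the fetal liver arrays. The fetal values were nearly identical while bone marrow arrays 3 and 4 read lower than 1 and 2. The change was 4.23 ± 0.22 (adjusted p = 2.26e-09), and its 3 probes ranged from 2.07 to 4.23. Igf2bp1 read -0.21, 0.04, -0.10 and -0.02 in bone marrow, not well above background, and 3.48, 3.01, 3.66 and 3.17 in fetal liver, with a change of 3.40 ± 0.14 and at least 10.2-fold. Igf2bp2 gave -1.89, -1.81, -1.79 and -1.66 in bone marrow against 1.31, 0.92, 1.24 and 1.22 in fetal liver, a change of 2.96 ± 0.11. No bone marrow array of the 3 genes came near a fetal liver array.

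The architectural chromatin protein Hmga2, known to sustain self-renewal of fetal stem cells, was far above the reference in both tissues. It read 5.32, 5.78, 5.56 and 5.32 on the bone marrow arrays and 7.74, 6.86, 7.91 and 7.57 on the fetal liver arrays. The groups did not overlap, although fetal liver array 2 stood lower than its partners and 1 fetal array was saturated, and the change was 2.03 ± 0.20 (adjusted p = 1.69e-06). Its other probe gave 3.15. Arid3a, a DNA-binding protein that drives B-1 cell output when raised in adult progenitors, read 0.26, 0.39, 0.04 and 0.17 on the bone marrow arrays and 2.57, 2.10, 1.99 and 1.98 on the fetal liver arrays. Its change was 1.94 ± 0.12 (adjusted p = 1.64e-08), with the first fetal array the highest of the 8.

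**Figure D2:**
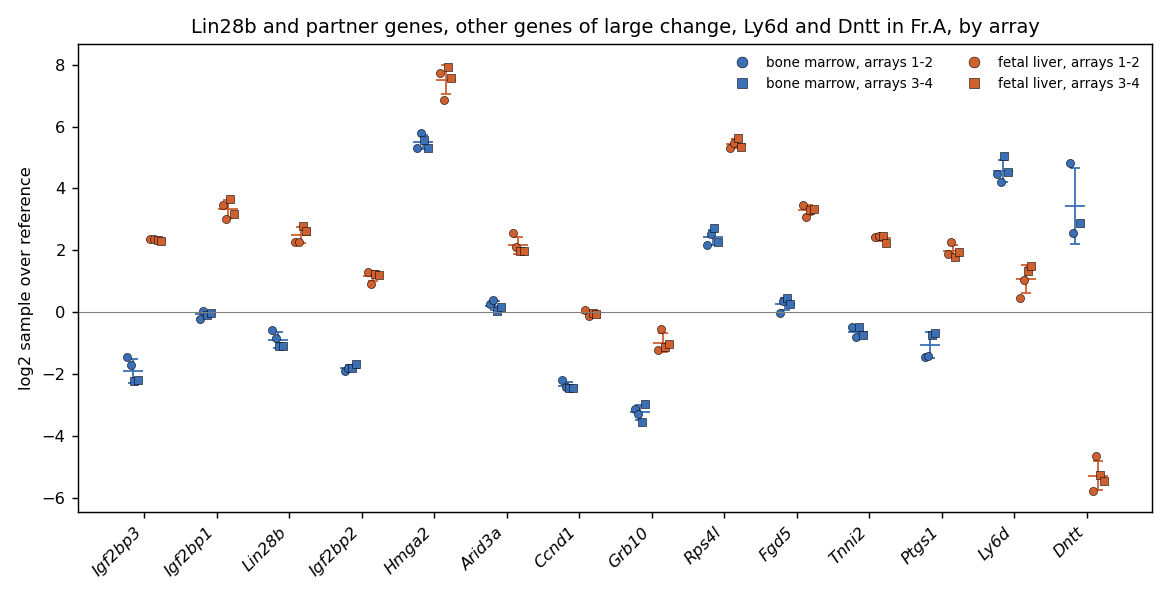
Log2 sample over reference of 14 genes on each Fr.A array (circles for arrays 1 and 2, squares for 3 and 4, blue for bone marrow, orange for fetal liver), with the group mean and SD as bars. Igf2bp3 lies between -2.23 and -1.45 in bone marrow and between 2.29 and 2.36 in fetal liver, while Dntt lies at or above 2.57 in bone marrow and at or below -4.64 in fetal liver.

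The other known targets of let-7 moved in both directions. In that list, of 23 tested members 8 were higher, 3 were lower and 12 did not pass, with a median change of 0.19. The count of higher members fell to 5 without bone marrow array 4 or fetal array 4. The cyclin gene Ccnd1, which takes cells into S phase, read -2.20, -2.42, -2.45 and -2.45 on the bone marrow arrays and 0.07, -0.12, -0.04 and -0.07 on the fetal liver arrays, a change of 2.34 ± 0.08 (adjusted p = 2.49e-11) and 5.06-fold. Its relative Ccnd2 went the other way, with 1.53, 1.51, 1.71 and 1.86 in bone marrow against -0.10, 0.77, 0.08 and 0.52 in fetal liver and a change of -1.33 ± 0.12 (adjusted p = 1.03e-06). Fetal cells thus had more of the former cyclin transcript and less of the latter, and arrays of the tissues did not overlap for either. Higher as well were the death receptor Fas (1.16 ± 0.11), the chromatin protein Hmga1 (0.97 ± 0.16) and the small GTPase Nras (0.92 ± 0.14), although the other probes of Fas and Nras gave -0.08 and -0.06. The proto-oncogene Myc gave -0.52, -0.40, 0.04 and 0.47 in bone marrow against -1.15, -0.48, -1.15 and -1.02 in fetal liver. Its change was -0.85 ± 0.21 (adjusted p = 0.0064), carried mostly by bone marrow arrays 3 and 4, and the groups overlapped. Mycn, the fetal relative of Myc, gave 3.36, 4.34, 3.58 and 3.31 in bone marrow against 4.16, 3.85, 4.52 and 4.63 in fetal liver and a change of 0.65 ± 0.20 (adjusted p = 0.0237), also with overlap, and it no longer passed when bone marrow array 1 or 4 or fetal array 3 or 4 was left out. Other probes gave as little as -0.11 for Myc and -0.01 for Mycn. Gatm, of creatine synthesis, was lower (-1.71 ± 0.22).

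Genes of the microRNA machinery passed in both directions. Of 14 tested members 3 were higher, Lin28b included, and 2 lower, beside 12.3% and 17.3% of all genes. Their median was 0.02. Tarbp2, a partner of Dicer, was higher by 0.62 ± 0.13, and the silencing scaffold Tnrc6b lower (-0.69 ± 0.13). Of 12 high mobility group genes 4 were higher and none lower, among them Hmgb1 (0.69 ± 0.11), which assists the recombinase. Hmgn1 gave 0.27, -0.24, -1.18 and -1.48 in bone marrow against 0.10, 0.21, 0.29 and 0.02 in fetal liver, where bone marrow arrays 1 and 2 lay near fetal liver and arrays 3 and 4 below it. It did not pass (adjusted p = 0.0946) but passed without bone marrow array 1.

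More imprinted and growth factor genes were higher than lower in the fetal cells. In the imprinted list, of 22 tested members 9 were higher, 3 were lower and 10 did not pass, with a median change of 0.20. Grb10, an adaptor that restrains insulin and growth factor receptors and is expressed in the fetus, read -3.13, -3.31, -3.54 and -2.98 on the bone marrow arrays and -1.23, -0.55, -1.13 and -1.04 on the fetal liver arrays. All arrays lay below the reference and the tissues were well apart, with a change of 2.25 ± 0.15 (adjusted p = 2.24e-08). Peg3 (1.74 ± 0.10) and the fetal growth factor Igf2 (0.81 ± 0.11) were well above background on only 1 bone marrow array each. The cell cycle inhibitor Cdkn1c gave 0.56, 0.64, 0.47 and 0.44 in bone marrow against 2.23, 2.15, 2.12 and 1.97 in fetal liver, a change of 1.59 ± 0.10 (adjusted p = 1.92e-08). Igf2r, which clears Igf2, gave -1.35, -1.37, -1.27 and -1.20 in bone marrow against -0.04, -0.04, 0.01 and 0.07 in fetal liver and was higher by 1.30 ± 0.11. Dlk1, a membrane protein of fetal progenitors, was higher by 1.21 ± 0.09, and Snrpn by 1.07 ± 0.13. In the list of insulin-like growth factor signalling 6 of 25 were higher and 2 lower. Igfbp7, a secreted binding protein, read 1.94, 2.41, 1.52 and 1.49 on the bone marrow arrays and -0.27, -0.40, -0.42 and -0.29 on the fetal liver arrays, a change of -2.18 ± 0.15 (adjusted p = 4.01e-08).

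Dntt had the largest change of any gene named here. It encodes terminal transferase, which adds nucleotides at V(D)J junctions without a template and is known to be little used in fetal B lymphopoiesis. Bone marrow arrays 1, 2 and 4 read 4.84, 2.57 and 2.88 (array 3 had no usable spot), and the fetal arrays read -5.77, -4.64, -5.27 and -5.46. The fitted change was -8.81 ± 0.46 (adjusted p = 4.01e-09), and because the probe was saturated in bone marrow the difference is given as at least 290-fold. Its 3 probes ranged from -9.04 to -3.72. The rest of the recombination machinery changed by less than 2-fold where it passed. Of 16 tested genes 4 were higher and 2 lower, Dntt and Poll, a polymerase of end joining (-0.58 ± 0.13), being the lower pair. The higher count was 2 when bone marrow array 3 or 4 or fetal array 1 or 4 was left out. Rag1 read 2.56, 2.51, 2.09 and 2.11 in bone marrow and 2.36, 1.76, 2.18 and 2.11 in fetal liver, and Rag2 read 1.84, 2.08, 1.66 and 1.72 and 1.97, 1.67, 2.03 and 1.84. These recombinase genes overlapped between tissues and did not pass, with changes of -0.22 ± 0.13 (adjusted p = 0.233) and 0.05 ± 0.10 (adjusted p = 0.777).

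Markers of the stage itself passed in part. In the pre-pro-B list, of 19 tested members 1 was higher, 4 were lower and 14 did not pass, with a median change of -0.21, beside 29.6% passing over all genes tested. Flt3, the receptor of lymphoid progenitors, read 3.76, 4.32, 3.54 and 3.05 on the bone marrow arrays and 3.64, 2.91, 3.70 and 3.40 on the fetal liver arrays, and Il7r, the receptor subunit for interleukin 7, read 1.31, 1.52, 0.96 and 1.16 on the bone marrow arrays and 1.39, 1.27, 0.78 and 0.83 on the fetal liver arrays. Both overlapped, with changes of -0.25 ± 0.21 (adjusted p = 0.415) and -0.17 ± 0.19 (adjusted p = 0.573). Ptprc, the B220 and CD45 gene (-0.24 ± 0.19, adjusted p = 0.39), did not pass either. Kit, the stem cell factor receptor, read 4.28, 4.69, 3.73 and 3.24 on the bone marrow arrays and 4.66, 4.44, 5.37 and 5.28 on the fetal liver arrays. Fetal arrays 3 and 4 were the highest and bone marrow arrays 3 and 4 the lowest, and arrays 1 and 2 overlapped, with a change of 0.95 ± 0.26 (adjusted p = 0.0102). Spn, the CD43 gene (-0.53 ± 0.14), and the B-lineage factor Ebf1 (-0.56 ± 0.12) were lower without overlap. Cd93 was lower as well, but its probe was saturated on 3 of the 4 bone marrow arrays, so the size of its change (-0.59 ± 0.11) is not measured.

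Ly6d broke that pattern. It marks the lymphoid progenitors that are committed towards the B lineage in adult marrow, and it read 4.48, 4.21, 5.06 and 4.54 on the bone marrow arrays and 0.47, 1.04, 1.33 and 1.49 on the fetal liver arrays. The change was -3.49 ± 0.20 (adjusted p = 5.67e-09), 11.2-fold, so the lowest bone marrow array stood far above the highest fetal array. In the Ly6 family as a whole 1 of 12 tested genes was higher and 5 were lower. Ly6e gave 0.06, -0.06, 0.43 and 0.62 in bone marrow against -2.92, -2.33, -2.23 and -2.03 in fetal liver and a change of -2.64 ± 0.19 (adjusted p = 7.52e-08). Ly6c1 (-2.01 ± 0.26), Ly6k (-1.34 ± 0.15) and Ly6a, the Sca-1 gene (-1.29 ± 0.11), were lower. The remaining 6 members, such as Ly6i (-0.12 ± 0.10), did not pass.

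Receptors for growth factors were divided too. Among receptors of lymphoid progenitors 3 of 15 were higher and 6 lower. Csf1r, the macrophage growth factor receptor that early fetal B-lineage cells can share, read 1.12, 1.54, 1.50 and 1.14 on the bone marrow arrays and 3.30, 2.93, 3.12 and 3.01 on the fetal liver arrays, a change of 1.77 ± 0.13 (adjusted p = 8.48e-08). Its 3 probes disagreed, from -0.01 to 1.77. Crlf2, the receptor for thymic stromal lymphopoietin, read 2.30, 2.35, 2.40 and 2.43 on the bone marrow arrays and 1.38, 1.80, 0.88 and 1.09 on the fetal liver arrays, a change of -1.08 ± 0.14 (adjusted p = 3.41e-05). Cd27 (-0.61 ± 0.10) and Cd48 (-0.84 ± 0.09) were lower too. Over all interleukin and colony-stimulating factor receptors, 3 of 35 were higher and 16 lower, and the median was -0.27. Il18r1 read 3.35, 3.97, 3.16 and 2.83 on the bone marrow arrays and 0.43, 0.30, 0.42 and 0.34 on the fetal liver arrays, a change of -2.96 ± 0.16 (adjusted p = 3.57e-09). Il2rb (-1.51 ± 0.20), Il12rb1 (-1.14 ± 0.13), Il6st, the shared subunit gp130 (-1.03 ± 0.12), and Il4ra (-0.92 ± 0.12) were lower. Il18r1, Il2rb and Il12rb1 are also receptors of NK cells, whose marker levels are given below.

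Transcription factors of the B lineage moved in both directions. Of 32 tested 6 were higher and 8 lower, beside 12.3% and 17.3% of all genes. Irf4, which pairs with Irf8 in later B cell development, read -1.77, -1.73, -1.85 and -1.64 on the bone marrow arrays and -0.51, -0.25, -0.73 and -0.60 on the fetal liver arrays, a change of 1.22 ± 0.09 (adjusted p = 7.13e-08). Irf8 gave 1.66, 1.51, 1.51 and 1.53 in bone marrow against 0.89, 1.04, 0.73 and 0.77 in fetal liver and a change of -0.70 ± 0.08. Bach2, a repressor that keeps B cells from plasma cell fate, gave -0.04, 0.00, 0.50 and 0.61 in bone marrow against -1.35, -0.62, -1.16 and -1.01 in fetal liver, a change of -1.31 ± 0.20 (adjusted p = 0.000112). Myb, needed for progenitor growth, was lower (-1.08 ± 0.10). Pax5 had a probe but was not tested. Of the E and Id proteins, Id3, an inhibitor of E proteins, was higher with -0.47, -0.73, 0.10 and -0.20 in bone marrow against 0.93, 1.47, 1.00 and 1.16 in fetal liver and 1.46 ± 0.20 (adjusted p = 5.35e-05), and its relative Id2 was lower (-0.94 ± 0.21, adjusted p = 0.003). Tcf3, an E protein gene, did not pass (0.12 ± 0.08, adjusted p = 0.313). In that list 3 of 12 tested genes were higher and 2 lower, another E protein gene among those that passed. In the list of stem and progenitor factors 4 of 33 were higher and 9 lower. Among homeobox genes of the Hox, Meis and Pbx families 2 of 22 were higher and 4 lower, all by less than 2-fold. Pbx2 was the highest (0.94 ± 0.11), with 0.12 on its other probe.

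Genes that relay signals of the pre-B cell receptor were also mixed. Of 23 tested 4 were higher and 7 lower (4 without bone marrow array 1). Blnk, the adaptor under the receptor, read 1.17, 1.13, 1.78 and 1.80 on the bone marrow arrays and -0.43, -0.22, -0.81 and -0.66 on the fetal liver arrays, a change of -2.0 ± 0.18 (adjusted p = 5.14e-07). The co-receptor gene Cd72 was lower (-1.36 ± 0.18, adjusted p = 2.92e-05). The scaffold Bank1 was higher, with -3.03, -2.84, -3.39 and -3.12 in bone marrow against -1.36, -1.45, -1.98 and -1.84 in fetal liver and 1.44 ± 0.17 (adjusted p = 1.16e-05), with 0.44 on its other probe. Bank1 and Blnk, both adaptors of B cell receptor signalling, thus stood in opposite order between the tissues. Among genes of more mature B cells 2 of 20 were higher and 11 lower. Genes of plasma cells gave 5 higher and 1 lower of 8, with 3 higher under median centring and 2 with scaling between arrays. The lower one was Sdc1, a marker fixed beforehand for plasma cells, with means of 0.66 in bone marrow and 0.14 in fetal liver. Mzb1, an endoplasmic reticulum chaperone of marginal zone and B-1 cells, read -0.39, -0.67, -0.42 and -0.61 on the bone marrow arrays and 1.18, 1.46, 1.23 and 1.22 on the fetal liver arrays, a change of 1.79 ± 0.10 (adjusted p = 3.37e-09). The joining chain gene Jchain, far below the reference, was higher by 1.01 ± 0.16. Of 13 genes linked with B-1 cells 1 was higher, Arid3a itself, and 3 were lower, among them Cd5 (-0.52 ± 0.14).

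Interferon-response genes were lower in the fetal cells. All 16 tested interferon-induced GTPases, which attack the vacuoles of pathogens, were lower, with a median of -1.33. Tgtp1 read 5.61, 5.76, 5.54 and 5.10 on the bone marrow arrays and 1.68, 1.57, 1.35 and 1.31 on the fetal liver arrays. Fetal arrays were still above the reference, and the change was -4.02 ± 0.14 (adjusted p = 2.36e-11), 16.3-fold, with -0.64 on the other probe. Ifi47 gave 3.16, 3.23, 3.00 and 2.93 in bone marrow against 0.98, 0.92, 0.81 and 0.83 in fetal liver and -2.19 ± 0.12 (adjusted p = 4.53e-09). Igtp gave 1.25, 1.16, 1.00 and 0.88 in bone marrow against -0.68, -0.41, -0.50 and -0.49 in fetal liver and -1.59 ± 0.09 (adjusted p = 3.87e-09). Iigp1 did not stand well above background in fetal liver, and bone marrow was at least 3.42-fold higher. Members of this family are alike in sequence, so signal may be shared between them. Of 44 antiviral genes 29 were lower and 2 higher, with a median of -0.78. Ifi44 read 2.91, 3.56, 3.09 and 3.38 on the bone marrow arrays and -0.16, -0.58, -0.24 and -0.13 on the fetal liver arrays, a change of -3.51 ± 0.15 (adjusted p = 1.7e-10), and its relative Ifi44l changed by -3.38 ± 0.12 (adjusted p = 2.49e-11), well above background on 2 fetal arrays and with -1.96 on its other probe. Oas1a, which makes the second messenger that activates RNase L, gave 2.08, 1.85, 2.01 and 1.56 in bone marrow against 0.08, 0.13, 0.20 and 0.02 in fetal liver and -1.77 ± 0.09 (adjusted p = 2.46e-09). Oasl1 (-1.45 ± 0.10) and the nuclear body protein Sp100 (-1.48 ± 0.08) were lower as well.

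Regions upstream of 4 of these genes are shown because the interferon-stimulated response element, the known binding sequence of the Irf and Stat proteins, can be looked for there. Each is the 250 bases before the annotated start (RefSeq, GRCm38.p6), with matches to GAAANNGAAA on either strand in capitals, where N is any base and matches may overlap. For each gene a start whose window holds a match was picked.
Tgtp1 (chr11:48992247-48992496, minus strand): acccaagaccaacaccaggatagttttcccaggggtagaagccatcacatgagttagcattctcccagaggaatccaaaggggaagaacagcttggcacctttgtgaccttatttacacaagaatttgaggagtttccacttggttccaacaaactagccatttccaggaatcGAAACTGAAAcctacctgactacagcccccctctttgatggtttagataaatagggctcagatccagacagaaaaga
Igtp (chr11:58199306-58199555, plus strand): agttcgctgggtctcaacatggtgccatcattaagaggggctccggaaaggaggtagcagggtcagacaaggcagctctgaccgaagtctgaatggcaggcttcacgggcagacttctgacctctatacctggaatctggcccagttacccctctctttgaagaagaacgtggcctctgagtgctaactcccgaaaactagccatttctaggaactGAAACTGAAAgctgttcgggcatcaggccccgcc
Oas1a (chr5:120907526-120907775, minus strand): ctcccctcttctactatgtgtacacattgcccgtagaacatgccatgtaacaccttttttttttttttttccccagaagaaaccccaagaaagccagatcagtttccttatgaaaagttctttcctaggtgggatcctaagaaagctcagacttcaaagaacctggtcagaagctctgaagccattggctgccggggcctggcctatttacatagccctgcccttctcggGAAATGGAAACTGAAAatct
H2-T23 (chr17:36032702-36032951, minus strand): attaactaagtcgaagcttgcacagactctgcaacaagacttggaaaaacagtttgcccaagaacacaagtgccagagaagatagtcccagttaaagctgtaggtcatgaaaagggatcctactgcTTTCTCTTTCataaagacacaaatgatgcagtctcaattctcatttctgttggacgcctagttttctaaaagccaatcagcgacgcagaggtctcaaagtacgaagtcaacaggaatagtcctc
A window was on hand for 11270 of the 14155 tested genes with a symbol, and 379 (3.36%) held the motif at 1 or more listed starts. It was in 89 of 1674 lower genes (5.32%), 51 of 1628 higher genes (3.13%) and 239 of 7968 that did not pass (3%). Among genes lower by at least 2-fold it was in 25 of 315 (7.94%). Of the interferon-induced GTPases with a window 8 of 9 (88.9%) held it, and of the antiviral genes 12 of 35 (34.3%). It was in 3 of 16 class I and loading genes (18.8%), 1 of 13 class II genes (7.69%) and 0 of 5 immunoproteasome genes. Of the constitutive proteasome 2 of 26 (7.69%) held it, of the mitotic genes 1 of 34 (2.94%), and of the Lin28b list 1 of 4 (25%). The lists of interferon-response genes were drawn up knowing that such genes respond to interferon. A match is not a bound site, and its absence from a window says nothing about the gene.

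The factors and receptors of the interferon pathway were lower in part. Of 12 members of the Irf family and its partners 2 were higher and 6 lower. Irf7, which amplifies type I interferon production, read 1.69, 1.93, 1.12 and 0.99 on the bone marrow arrays and 0.15, -0.03, -0.04 and 0.05 on the fetal liver arrays, a change of -1.40 ± 0.16 (adjusted p = 7.87e-06). Irf9 gave 1.79, 2.09, 1.85 and 1.76 in bone marrow against 0.74, 0.34, 0.74 and 0.51 in fetal liver and -1.29 ± 0.12 (adjusted p = 8.61e-07), with -0.16 on its other probe, and Irf1 gave 2.16, 2.16, 2.37 and 2.53 in bone marrow against 1.12, 1.51, 0.81 and 0.97 in fetal liver and -1.20 ± 0.16 (adjusted p = 3.05e-05). Irf2 (-0.05 ± 0.21, adjusted p = 0.888) and Irf3 (-0.09 ± 0.12, adjusted p = 0.66) overlapped and did not pass. Of 33 receptors, Jak kinases, Stat factors and their inhibitors 1 was higher and 14 were lower. Cish, an inhibitor induced by Stat5, read 1.74, 2.01, 1.94 and 2.05 on the bone marrow arrays and -0.15, -0.23, -0.26 and -0.11 on the fetal liver arrays, a change of -2.12 ± 0.18 (adjusted p = 4.17e-07). Stat3 (-1.1 ± 0.12), Jak1 (-0.88 ± 0.10) and Socs2 (-0.93 ± 0.12) were lower.

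Sensors of microbes were lower in part. Of 31 pattern receptors and their adaptors 13 were lower and 2 higher. Nod1, which senses bacterial peptidoglycan, read 1.70, 1.94, 1.87 and 1.75 on the bone marrow arrays and 0.03, 0.05, -0.13 and -0.05 on the fetal liver arrays, a change of -1.84 ± 0.09 (adjusted p = 7.76e-10). Dhx58, a regulator of the RNA sensor RIG-I, gave 1.61, 1.94, 1.75 and 1.79 in bone marrow against 0.00, -0.33, -0.48 and -0.32 in fetal liver and -2.05 ± 0.13 (adjusted p = 9.94e-09), and the RIG-I gene Ddx58 was lower (-0.70 ± 0.08). The inflammatory caspases, which drive pyroptosis, were lower. Casp1 read 0.06, 0.22, 0.04 and 0.32 on the bone marrow arrays and -2.47, -2.31, -2.82 and -2.73 on the fetal liver arrays, a change of -2.74 ± 0.13 (adjusted p = 9.13e-10), and Casp4, which binds bacterial lipopolysaccharide, gave -0.73, -0.59, -0.22 and -0.27 in bone marrow against -3.29, -3.01, -2.97 and -2.67 in fetal liver and -2.53 ± 0.16 (adjusted p = 1.03e-08). Gsdmd, the pore protein they cut, was lower (-1.13 ± 0.10). Over all death receptors and caspases 10 of 26 were lower and 1 was higher, Fas. In the NF-kB pathway 11 of 28 were lower and 1 higher. Nfkbia, the inhibitor that NF-kB induces, gave 1.96, 1.92, 2.05 and 2.04 in bone marrow against 0.40, 0.65, 0.67 and 0.79 in fetal liver and -1.36 ± 0.11 (adjusted p = 1.32e-07), and Nfkb1 was lower (-1.33 ± 0.20, adjusted p = 0.000102).

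Antigen-presentation genes were lower in the fetal cells. Of 22 class I and peptide-loading genes 18 were lower and none higher, with a median of -1.55. H2-D1, a classical class I gene, read 2.39, 1.99, 1.45 and 1.26 on the bone marrow arrays and -2.61, -2.28, -2.56 and -2.67 on the fetal liver arrays, a change of -4.31 ± 0.20 (adjusted p = 4.32e-10), 19.8-fold. H2-T23, which encodes the NK cell ligand Qa-1, gave 2.59, 2.26, 1.82 and 1.66 in bone marrow against -1.96, -1.69, -1.92 and -1.99 in fetal liver and -3.97 ± 0.16 (adjusted p = 1.2e-10). H2-Q7 gave 2.50, 2.25, 1.74 and 1.68 in bone marrow against -2.17, -2.0, -2.14 and -2.26 in fetal liver and -4.18 ± 0.16 (adjusted p = 4.04e-11). For each of them bone marrow arrays 1 and 2 read above 3 and 4, and the fetal arrays lay close together. Class I genes are near-identical over long stretches and differ between strains, so the probes cannot be taken to separate them, and they are not 22 independent observations.

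The proteasome divided by type. Of the 5 subunits of the immunoproteasome and its activator, which cut peptides for class I, 4 were lower (2 under median centring in place of loess). Psmb8 read 0.71, 0.71, 0.62 and 0.60 on the bone marrow arrays and -0.93, -0.68, -0.85 and -0.86 on the fetal liver arrays, a change of -1.49 ± 0.08 (adjusted p = 1.65e-09), and Psmb9 gave 1.54, 1.30, 1.36 and 1.41 in bone marrow against -0.64, 0.07, -0.65 and -0.43 in fetal liver and -1.81 ± 0.14 (adjusted p = 1.85e-07). Psme2 overlapped and did not pass (-0.24 ± 0.15, adjusted p = 0.262). Of 32 constitutive subunits 10 were higher and none lower, with a median of 0.28. Psmb7, the constitutive counterpart of Psmb10, was higher by 0.72 ± 0.13 while Psmb10 was lower (-0.79 ± 0.15). All their passing changes were under 2-fold. Under median centring 2 of the constitutive subunits were higher, and 5 without fetal array 4.

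Of 18 class II genes 12 were lower and 1 was higher. Cd74, the invariant chain, read 3.06, 2.91, 3.19 and 2.67 on the bone marrow arrays and -0.05, 0.13, 0.10 and 0.10 on the fetal liver arrays, a change of -2.89 ± 0.11 (adjusted p = 3.53e-11), 7.39-fold. H2-DMa, which loads peptides, gave 3.27, 3.49, 3.53 and 3.12 in bone marrow against 1.35, 1.75, 1.23 and 1.35 in fetal liver and -1.93 ± 0.12 (adjusted p = 1.42e-08). H2-Eb1, of the E heterodimer, changed by -2.13 ± 0.18 (adjusted p = 3.31e-07), and the protease Ctss, which trims the invariant chain, by -1.63 ± 0.16 (adjusted p = 1.32e-06). No fetal array reached the lowest bone marrow array for any of these 4.

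**Figure D3:**
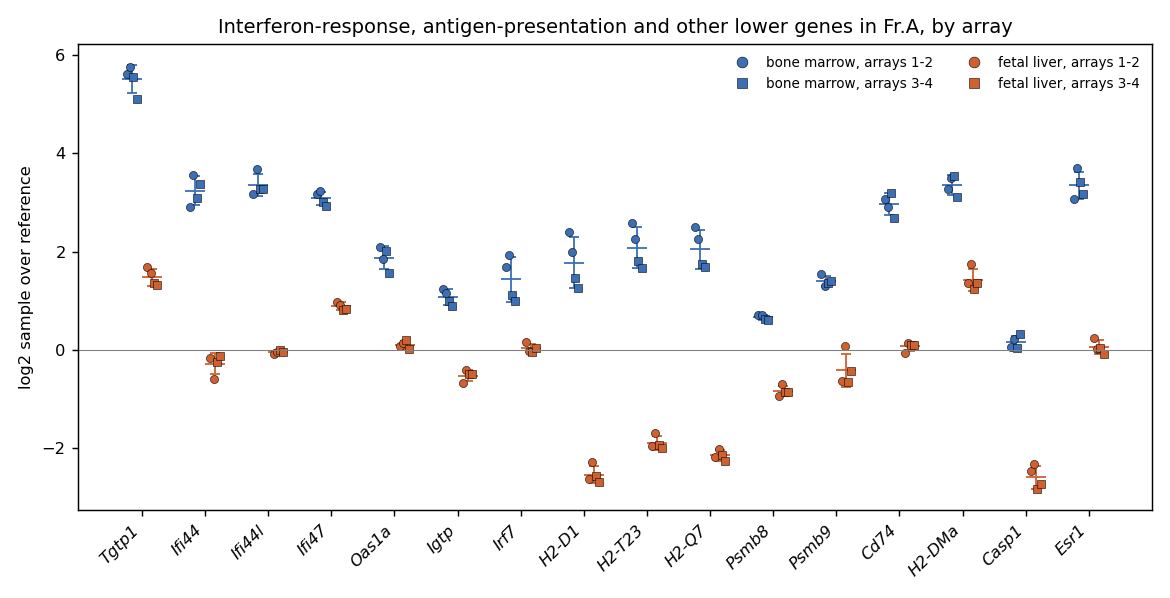
Log2 sample over reference of 16 genes on each Fr.A array, drawn as in the plot of Lin28b and partner genes, with group means and SD. Tgtp1 lies between 5.10 and 5.76 in bone marrow and between 1.31 and 1.68 in fetal liver, and H2-D1 between 1.26 and 2.39 against -2.67 and -2.28.

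Hormone receptors and early response genes that passed were mostly lower. Of 30 nuclear receptors 11 were lower and none higher. Esr1, the estrogen receptor alpha, which restrains adult lymphopoiesis, read 3.07, 3.70, 3.41 and 3.18 on the bone marrow arrays and 0.25, 0.01, 0.05 and -0.07 on the fetal liver arrays. It was well above background on 2 of the 4 fetal arrays, and the change was -3.28 ± 0.12 (adjusted p = 4.68e-11). The donors are labelled as adult females in one group and as embryos in the other, so tissue, age and sex cannot be told apart. Rora, well above background on 1 of the 4 fetal arrays, gave 0.06, 0.27, -0.18 and -0.13 in bone marrow against -1.29, -1.47, -1.43 and -1.14 in fetal liver and -1.34 ± 0.13 (adjusted p = 1.04e-06). For the progesterone receptor Pgr no fetal array stood well above background, with bone marrow at least 1.55-fold higher. Of 19 glucocorticoid targets 4 were higher and 7 lower. Fkbp5, a co-chaperone they induce, gave -0.08, -0.13, 0.02 and -0.06 in bone marrow against -1.22, -1.18, -1.50 and -1.47 in fetal liver and -1.28 ± 0.10 (adjusted p = 8.74e-08), with as little as -0.06 on its other probes. Of 29 immediate-early genes, which tissue handling also induces, 14 were lower (9 without fetal array 3) and 3 higher. Jun was among the 3 higher, with -0.63, -0.56, -0.12 and -0.06 in bone marrow against 1.26, 1.00, 1.21 and 1.15 in fetal liver (1.50 ± 0.21, adjusted p = 5.35e-05), and its partner Junb was lower (-0.72 ± 0.10). Of 23 heat shock genes 3 were higher and 3 lower, and of 23 genes of endoplasmic reticulum stress 2 and 2. Over all genes tested 12.3% were higher and 17.3% lower. The livers were dissociated between glass slides and the marrow was flushed, and the part of handling was not tested.

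Genes of division were higher in the fetal cells. Among 39 mitotic genes, 30 were higher and 9 did not pass, with a median of 0.60. Ube2c, which helps trigger anaphase, read -0.88, -0.92, -1.01 and -0.91 on the bone marrow arrays and 0.01, 0.65, 0.36 and 0.61 on the fetal liver arrays, a change of 1.34 ± 0.11 (adjusted p = 2.7e-07). Bub1, of the spindle checkpoint, gave -1.82, -1.63, -1.95 and -1.70 in bone marrow against -0.58, -0.80, -0.76 and -0.56 in fetal liver and 1.1 ± 0.09 (adjusted p = 3.02e-07). The mitotic kinase Plk1 gave -0.80, -1.22, -0.87 and -0.94 in bone marrow against 0.13, 0.20, 0.06 and -0.02 in fetal liver and 1.05 ± 0.11 (adjusted p = 4.02e-06). Aurka (0.94 ± 0.09), Birc5 (0.89 ± 0.08) and Tpx2 (1.18 ± 0.09) were of like size, so these genes differed by about 2-fold or a little more. The higher count was 15 under median centring, again with none lower. Replication genes moved less. Of 40 tested 12 were higher and 1 lower, with a median of 0.21, led by the origin licensing factor Cdc6 (0.69 ± 0.11). Without bone marrow array 2 it was 6 higher, and under median centring 1.

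Inhibitors of the cycle were split. Cdkn1a, the p53 target p21, read 0.66, 0.53, 1.19 and 1.06 on the bone marrow arrays and -1.71, -1.1, -1.15 and -1.04 on the fetal liver arrays, a change of -2.11 ± 0.20 (adjusted p = 1.16e-06), and Cdkn2c, which blocks the kinases that cyclin D binds, was lower (-1.14 ± 0.14, adjusted p = 1.46e-05). Cdkn1c, described above, was higher. Over cyclins, their kinases and inhibitors 12 of 35 were higher and 8 lower. Of 26 p53 targets 3 were higher and 6 lower, with Fas and Cdkn1a on opposite sides. The p53 target Phlda3 was lower (-1.41 ± 0.14, adjusted p = 2.64e-06). The survival gene Bcl2 read 2.37, 2.62, 1.68 and 1.89 on the bone marrow arrays and 0.65, 0.84, 0.41 and 0.55 on the fetal liver arrays, a change of -1.53 ± 0.16 (adjusted p = 2.57e-06), and Bax, which opposes it, was higher by 0.82 ± 0.14 (adjusted p = 0.00048). In the Bcl2 family 2 of 20 were higher and 5 lower (3 without bone marrow array 3).

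Genes of energy metabolism that passed were mostly higher. Of 52 genes of oxidative phosphorylation, 18 were higher, the rest did not pass, the median was 0.33 and the highest change, of Cox7b, at 0.78 ± 0.12. The higher count was 10 without bone marrow array 2, fetal array 3 or fetal array 4, 7 under median centring and 3 without both fetal arrays 3 and 4. Of 25 citrate cycle genes 5 were higher and none lower, with Pdha1, the entry enzyme, at 0.72 ± 0.11 (adjusted p = 0.000104), and 3 were higher without bone marrow array 3 or 4 or fetal array 3. Of 27 glycolysis genes 8 were higher and 3 lower. The glucose carrier Slc2a1 read -1.83, -1.61, -1.40 and -1.28 on the bone marrow arrays and -0.35, -0.45, 0.51 and 0.74 on the fetal liver arrays, with fetal arrays 3 and 4 above 1 and 2, and changed by 1.64 ± 0.28 (adjusted p = 0.000376). Of 32 ribosome biogenesis genes 10 were higher and 1 lower (1 higher and none lower under median centring). Other metabolic lists were balanced, with 7 of 35 antioxidant genes higher and 9 lower, and 7 of 30 lipid genes higher and 6 lower. Erythroid markers, given below, were also highest on fetal arrays 3 and 4, and their part in these changes was not tested.

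Few ribosomal protein genes passed. Of 52 tested 4 were higher, 5 lower and 43 did not pass, beside 29.6% passing over all genes tested. The median was -0.22, and the lower count was 2 without bone marrow array 2 or fetal array 2 and 3 without bone marrow array 3 or 4. Rps4l, a relative of the X-linked Rps4x, read 2.17, 2.53, 2.71 and 2.26 on the bone marrow arrays and 5.32, 5.47, 5.64 and 5.36 on the fetal liver arrays, a change of 3.03 ± 0.15 (adjusted p = 1.25e-09), 8.18-fold. Rpl39l, a relative of Rpl39, read 0.28, 0.42, 0.25 and 0.35 on the bone marrow arrays and 2.49, 1.99, 2.58 and 2.41 on the fetal liver arrays, a change of 2.04 ± 0.10 (adjusted p = 1.31e-09), with 0.37 on its other probe. Near-identical copies can share signal on a probe. Of 18 genes of DNA methylation and its editing 3 were higher and 2 lower, with the embryonic methyltransferase Dnmt3b at 1.64, 1.72, 1.30 and 1.06 in bone marrow against 3.07, 2.70, 2.79 and 2.75 in fetal liver (1.40 ± 0.13, adjusted p = 7.84e-07).

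Homing receptors differed widely. Of 21 chemokine and related receptors 12 were lower and 2 higher. Ccr9, which guides cells to thymus and gut, read 0.03, -0.40, -0.43 and -0.92 on the bone marrow arrays and 1.47, 1.47, 1.74 and 1.51 on the fetal liver arrays, a change of 1.98 ± 0.14 (adjusted p = 6.75e-08), and Cxcr3 gave 0.61, 0.98, 0.63 and 0.53 in bone marrow against 2.47, 2.48, 1.78 and 1.86 in fetal liver and 1.46 ± 0.16 (adjusted p = 6.94e-06). On the lower side, Cxcr5, which guides B cells to follicles, read 2.34, 2.48, 3.11 and 2.57 on the bone marrow arrays and 0.85, 0.65, 0.66 and 0.51 on the fetal liver arrays, a change of -1.96 ± 0.15 (adjusted p = 1.31e-07). Ccr6 gave 2.64, 3.11, 2.77 and 2.10 in bone marrow against 0.70, 0.58, 0.73 and 0.70 in fetal liver and -1.98 ± 0.17 (adjusted p = 3.4e-07). Cxcr6, known from T and NK cells, gave 0.56, 0.63, -0.20 and -0.16 in bone marrow against -2.08, -2.46, -2.72 and -2.71 in fetal liver and -2.70 ± 0.19 (adjusted p = 5.86e-08). Among integrins and adhesion molecules 5 of 36 were higher and 10 lower. Itgb7, which pairs with alpha 4 as the gut-homing integrin, read 1.54, 1.50, 1.52 and 1.55 on the bone marrow arrays and -0.48, -0.11, -0.66 and -0.45 on the fetal liver arrays, a change of -1.95 ± 0.12 (adjusted p = 8.49e-09). Jam3, a junctional adhesion molecule of stem cells, was higher by 1.09 ± 0.10 (adjusted p = 6.13e-07). Among glycosyltransferases of homing ligands 6 of 29 were higher (3 without fetal array 4) and 10 lower, with Fut7, which makes selectin ligands, lower (-1.20 ± 0.10, adjusted p = 2.5e-07) and the sialyltransferase St3gal6 higher (1.34 ± 0.10, adjusted p = 1.05e-07), with 0.32 on its other probe.

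Several of the highest and lowest genes belong to none of these groups. Ptgs1, the constitutive cyclooxygenase, read -1.44, -1.40, -0.74 and -0.66 on the bone marrow arrays and 1.89, 2.25, 1.79 and 1.95 on the fetal liver arrays, a change of 3.03 ± 0.20 (adjusted p = 1.86e-08). Of 19 eicosanoid genes 3 were higher and 7 lower, with the leukotriene B4 receptor Ltb4r1 lower (-1.79 ± 0.23, adjusted p = 2.95e-05). Fgd5, an exchange factor known as a marker of blood stem cells, read -0.01, 0.35, 0.46 and 0.26 on the bone marrow arrays and 3.48, 3.08, 3.29 and 3.34 on the fetal liver arrays, a change of 3.03 ± 0.13 (adjusted p = 1.65e-10). Tnni2, a troponin of fast muscle, read -0.49, -0.79, -0.47 and -0.75 on the bone marrow arrays and 2.42, 2.45, 2.46 and 2.24 on the fetal liver arrays, a change of 3.02 ± 0.09 (adjusted p = 7.21e-12). Of 21 contractile and other such genes 8 were higher and 5 lower. The myosin light chain Myl10, which is not in that list, was among the 20 lowest genes of all (-3.54 ± 0.15, adjusted p = 2.04e-10). Mcts2, an imprinted retrogene, gave -3.04, -3.03, -2.88 and -2.24 in bone marrow against -0.19, -0.01, -0.07 and 0.03 in fetal liver and 2.74 ± 0.14 (adjusted p = 3.32e-09). Dnajc6, a chaperone of clathrin uncoating, gave 1.14, 1.24, 0.72 and 0.72 in bone marrow against -2.44, -2.80, -2.97 and -2.72 in fetal liver and -3.68 ± 0.13 (adjusted p = 3.35e-11). Gimap7, of a cluster of lymphocyte GTPases, gave 3.75, 4.45, 4.60 and 4.36 in bone marrow against 1.77, 1.45, 1.50 and 1.19 in fetal liver and -2.82 ± 0.16 (adjusted p = 5.18e-09). Of the 7 cluster members tested, 2 were higher, 2 lower and 3 did not pass. S100a4, a calcium-binding protein, gave -1.22, -1.51, -1.17 and -1.35 in bone marrow against -3.89, -3.40, -3.38 and -3.54 in fetal liver and -2.24 ± 0.13 (adjusted p = 7.6e-09), and S100a6 was lower (-2.36 ± 0.28, adjusted p = 1.3e-05).

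Markers of other cell types moved with tissue too. NK and innate lymphoid markers were lower in 12 of 20 cases and higher in none. Their median per array was 0.43 to 0.84 in bone marrow and 0.01 to 0.09 in fetal liver, and 19 and 13 of 23 members with a probe were well above background on at least 3 arrays. Nkg7, a cytotoxic granule protein, read 2.16, 2.08, 2.28 and 2.41 on the bone marrow arrays and -1.42, -0.58, -0.85 and -0.78 on the fetal liver arrays, a change of -3.14 ± 0.14 (adjusted p = 3.9e-10). Ccl5 gave 3.71, 4.28, 2.63 and 2.43 in bone marrow against 0.59, 0.27, 0.70 and 0.83 in fetal liver and -2.66 ± 0.30 (adjusted p = 8.32e-06), and perforin, Prf1, gave 1.43, 1.97, 1.82 and 1.45 in bone marrow against 0.18, 0.08, 0.18 and 0.03 in fetal liver and -1.55 ± 0.11 (adjusted p = 6.89e-08). Ncr1, a defining NK receptor, was well above background on 3 bone marrow arrays and no fetal array. The means of other defining NK genes lay closer, at 1.27 in bone marrow and 1.16 in fetal liver for Klrb1c. For Gzma they were -4.93 and -5.33. T cell markers were lower in 11 of 23 and higher in none. Their medians were -2.18 to -1.95 in bone marrow and -2.82 to -2.55 in fetal liver, below a reference that holds a T cell line, EL4. Cd6 read 0.84, 0.80, 1.15 and 0.93 on the bone marrow arrays and -1.17, -0.87, -1.15 and -1.14 on the fetal liver arrays, a change of -2.01 ± 0.12 (adjusted p = 5.67e-09), but its other probe gave 0.00. Tcf7 changed by -1.45 ± 0.18 (adjusted p = 1.93e-05), with -0.16 on its other probe, and Thy1 by -1.89 ± 0.16 (adjusted p = 4.48e-07), with -0.61. Of the defining T cell markers, Cd3e had means of -0.33 in bone marrow and -0.29 in fetal liver. The means were -5.12 and -4.85 for Cd3g and 0.26 and 0.39 for Cd4. Cd8a was not well above background on any array. Lck, the remaining defining marker, was among the members that passed as lower, with means of -0.28 in bone marrow and -1.24 in fetal liver. The part of NK and T cells in the lower cytokine and chemokine receptors was not tested.

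Of 27 myeloid markers 15 were lower and 4 higher. Their median ran from 1.12 to 2.47 in bone marrow and from 0.69 to 1.51 in fetal liver. Retnlg, a neutrophil product, read 3.89, 4.89, 5.82 and 5.21 on the bone marrow arrays and 0.54, 0.40, 1.93 and 1.91 on the fetal liver arrays, a change of -3.76 ± 0.42 (adjusted p = 6.49e-06), and Lyz2 gave 4.87, 4.75, 5.88 and 5.40 in bone marrow against 2.85, 3.11, 3.32 and 3.41 in fetal liver and -2.05 ± 0.21 (adjusted p = 3.05e-06). Within both tissues arrays 3 and 4 read above 1 and 2. The defining myeloid gene Mpo had closer means, at 7.05 in bone marrow and 6.85 in fetal liver. Those of Itgam were 0.40 and 0.49, and those of Elane 1.52 and 0.57. S100a8, a neutrophil calgranulin, gave 6.55, 7.33, 8.03 and 7.47 in bone marrow against 3.46, 3.38, 6.50 and 6.33 in fetal liver and -2.42 ± 0.69 (adjusted p = 0.0147), the groups nearly touching, and it did not pass without fetal array 1 or without fetal array 2. Of 19 macrophage markers 6 were higher and 2 lower. The scavenger receptor Cd163 read 2.73, 3.30, 2.87 and 2.88 on the bone marrow arrays and 0.49, 0.05, 0.02 and 0.05 on the fetal liver arrays, a change of -2.79 ± 0.12 (adjusted p = 2.76e-10), and Apoe gave -1.13, -1.50, -1.53 and -1.51 in bone marrow against 0.10, 0.41, 0.32 and 0.40 in fetal liver and 1.73 ± 0.18 (adjusted p = 2.66e-06). Of 14 mast cell and basophil markers 4 were lower, with Mcpt8 at least 2.93-fold higher in bone marrow and not well above background on any fetal array. Whether these cells carry part of the interferon and class II signal was not tested.

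Of 26 erythroid markers 17 were higher and 1 lower, and without fetal arrays 3 and 4 in 7 and none. Their median was 0.08 to 0.18 on the bone marrow arrays and 0.55, 0.63, 1.88 and 2.21 on the fetal arrays, so the size of the difference rests on fetal arrays 3 and 4. Klf1, the master factor of red cells, read -0.06, 0.06, 0.29 and 0.41 on the bone marrow arrays and 1.95, 2.0, 3.55 and 3.73 on the fetal liver arrays, a change of 2.63 ± 0.45 (adjusted p = 0.000337). The band 3 gene Slc4a1 gave 2.0, 2.34, 2.58 and 2.25 in bone marrow against 4.12, 4.05, 5.29 and 5.35 in fetal liver and 2.41 ± 0.34 (adjusted p = 7.36e-05). Rhd, of the Rhesus complex, gave -1.95, -1.70, -1.82 and -1.48 in bone marrow against 0.05, -0.03, 2.61 and 2.74 in fetal liver and 3.08 ± 0.67 (adjusted p = 0.00262), and it did not pass without fetal arrays 3 and 4. Redrum, an erythroid noncoding RNA (2.32 ± 0.56, adjusted p = 0.00526), and Cstdc6 (2.95 ± 0.63, adjusted p = 0.00212) showed the same order of arrays and lost their calls in that setting too, while Ermap (2.61 ± 0.51, adjusted p = 0.00103) and Cldn13 (2.64 ± 0.49, adjusted p = 0.000803), also highest there, kept theirs. Without these arrays 1641 genes were higher and 2705 lower over the whole comparison. Of 16 megakaryocyte markers 5 were higher and 2 lower, with Pf4 at -4.62, -4.71, -4.45 and -4.39 in bone marrow against -2.62, -2.38, -2.55 and -2.53 in fetal liver (2.02 ± 0.27, adjusted p = 3.37e-05). The defining gene Itga2b was not well above background on any array.

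Hepatocyte genes were detected in part. Of 22 with a probe 7 were well above background on at least 3 arrays in bone marrow and 8 in fetal liver, Apoa1 and Ttr on none and Alb on 2 fetal arrays, and the per-array medians were 0.05 to 0.12 and 0.10 to 0.27. Afp, the fetal hepatocyte protein, was well above background on all 8 arrays, with a bone marrow mean of 2.82 and a fetal liver mean of 2.52, and did not pass (-0.31 ± 0.15, adjusted p = 0.152). Of 10 tested 1 was higher, Rbp4 (at least 1.48-fold, not well above background in bone marrow; fitted change 0.73 ± 0.14), and 2 were lower, with Trf at -1.54 ± 0.14 (adjusted p = 7.83e-07). The stromal gene Col1a1 was not well above background on any array, and of 17 stromal and endothelial markers 3 were higher and 2 lower. Kdr, a receptor of endothelium and its precursors, read 0.44, 0.92, 0.86 and 0.84 on the bone marrow arrays and 2.12, 1.92, 1.84 and 1.98 on the fetal liver arrays, a change of 1.20 ± 0.19 (adjusted p = 0.000162). Plasmacytoid dendritic cell markers had medians of 0.53 to 0.92 in bone marrow and 0.59 to 0.80 in fetal liver. Of 20 tested 5 were higher and 7 lower, with the higher Ccr9, Atp1b1 (1.79 ± 0.19, adjusted p = 3.15e-06) and Pacsin1 (1.62 ± 0.16, adjusted p = 1.6e-06) and the lower Irf7, Irf8 and Ly6d, most of which other lists hold too.

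**Figure D4:**
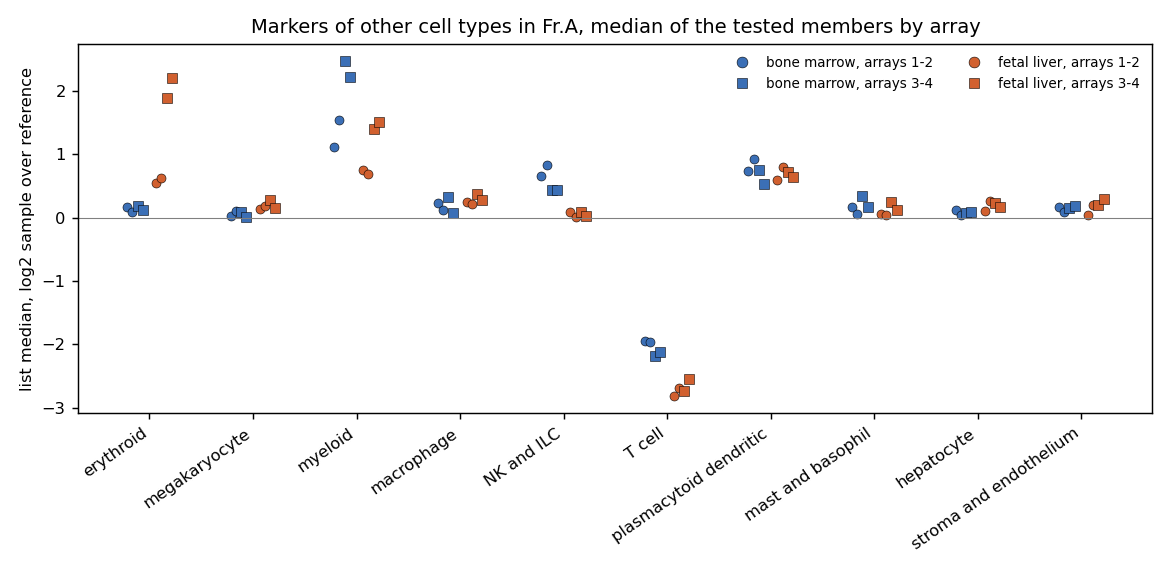
Median log2 sample over reference of the tested members of 10 marker lists on each Fr.A array, with symbols as in the plot of Lin28b and partner genes. Erythroid markers lie at 0.55 to 2.21 on fetal liver arrays against 0.08 to 0.18 on bone marrow arrays, and NK markers at 0.01 to 0.09 against 0.43 to 0.84.

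The tissue difference in Fr.A was then set against that in Fr.B/C by testing the difference of the differences, the interaction. It passed at 1614 of 21584 genes (7.48%), 652 positive and 962 negative. The second array set alone gave 6766 and the first 720. The tissues share no arrays between the fractions, but each sort gave both, so the comparisons are not of independent animals. With the sort as a random block, which pairs the fractions, 3122 passed, and the 70 named interactions that passed without it all passed with the same sign. For Arid3a it did not pass (-0.15 ± 0.18, adjusted p = 0.707), with a Fr.B/C change of 2.09 ± 0.12. Lin28b and Dntt differed in the same direction in Fr.B/C (3.66 ± 0.15 and -9.03 ± 0.42), but with a dim and a saturated probe in bone marrow the sizes were not compared between fractions.

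Ccnd1 had nearly all of its difference in Fr.A. Its Fr.B/C change was 0.13 ± 0.08 and the interaction 2.21 ± 0.11 (adjusted p = 8.64e-08). Igf2bp2 was 1.22 ± 0.11 in Fr.B/C, with an interaction of 1.74 ± 0.16 (adjusted p = 1.23e-05), and Igf2bp3 likewise differed more in Fr.A (2.0 ± 0.32, adjusted p = 0.0011). On their main probes Hmga2 and Rpl39l differed less in Fr.A than in Fr.B/C, where they changed by 3.81 ± 0.20 and 3.87 ± 0.10, with interactions of -1.78 ± 0.28 (adjusted p = 0.00106) and -1.83 ± 0.15 (adjusted p = 3.37e-06). With the mean of its probes the interaction of Hmga2 had the other sign, 0.26 (adjusted p = 0.577, limma). Rasgrp3, an exchange factor for Ras downstream of the B cell receptor, turned over. It read 0.69, 0.84, 0.40 and 0.55 on the bone marrow arrays and 1.42, 1.51, 1.64 and 1.90 on the fetal liver arrays in Fr.A, a change of 1.00 ± 0.12 (adjusted p = 9.79e-06), against -1.33 ± 0.12 in Fr.B/C, and the interaction was 2.33 ± 0.16 (adjusted p = 2.63e-06). Fcrla turned over too, from 0.75 ± 0.12 to -0.93 ± 0.12 (1.69 ± 0.18, adjusted p = 3.34e-05). Runx2, a Runt factor, did not pass in Fr.A (0.21 ± 0.23) and was -2.03 ± 0.23 in Fr.B/C (2.24 ± 0.33, adjusted p = 0.000583). The adaptor Grb7, lower in both, had the highest interaction of the named genes (2.59 ± 0.32, adjusted p = 0.000146), from -1.28 ± 0.23 in the former and -3.87 ± 0.23 in the latter fraction.

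Several negative interactions were of genes lower in fetal Fr.A. Il18r1 changed by -0.24 ± 0.16 in Fr.B/C, with an interaction of -2.72 ± 0.23 (adjusted p = 7.9e-06). Cxcr6 (-2.56 ± 0.27, adjusted p = 3.92e-05), Cd163 (-2.35 ± 0.17, adjusted p = 2.82e-06), Ccl5 (-2.34 ± 0.43, adjusted p = 0.00337), Cd6 (-2.15 ± 0.17, adjusted p = 2.82e-06), Ccr6 (-2.06 ± 0.24, adjusted p = 6.86e-05) and Igfbp7 (-2.14 ± 0.21, adjusted p = 2.55e-05) had interactions of the same sign. Chdh, of choline oxidation, gave 0.49, 0.67, 0.13 and 0.23 in bone marrow against -1.66, -1.93, -1.76 and -1.81 in fetal liver in Fr.A and an interaction of -2.22 ± 0.22 (adjusted p = 2.13e-05). Several of these are markers of NK cells, T cells or macrophages, and 8 of 20 NK and 6 of 23 T cell markers passed the interaction. On the positive side P2ry12, an ADP receptor, read 1.24, 1.46, 0.88 and 0.99 on the bone marrow arrays and 3.21, 2.77, 3.27 and 3.26 on the fetal liver arrays, with an interaction of 2.04 ± 0.21 (adjusted p = 2.86e-05). Cavin2, of caveolae and well above background on 2 of the 4 bone marrow Fr.A arrays, was higher in Fr.A by 2.18 ± 0.14, with 0.09 ± 0.14 in Fr.B/C (2.08 ± 0.20, adjusted p = 1.53e-05). Cox6a2, a cytochrome oxidase subunit, was 0.40 ± 0.22 in Fr.A against 2.70 ± 0.22 in Fr.B/C (-2.30 ± 0.31, adjusted p = 0.000266). Of the interferon-response genes, Ifi47, Oas1a and Tgtp1 fell further in Fr.B/C (-3.12 ± 0.12, -2.76 ± 0.09 and -4.87 ± 0.14), with interactions of 0.93 ± 0.18 (adjusted p = 0.00406), 0.99 ± 0.13 (adjusted p = 0.000295) and 0.85 ± 0.19 (adjusted p = 0.0132). Cd74 fell further in Fr.A (interaction -1.27 ± 0.15, adjusted p = 8.44e-05).

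**Figure D5:**
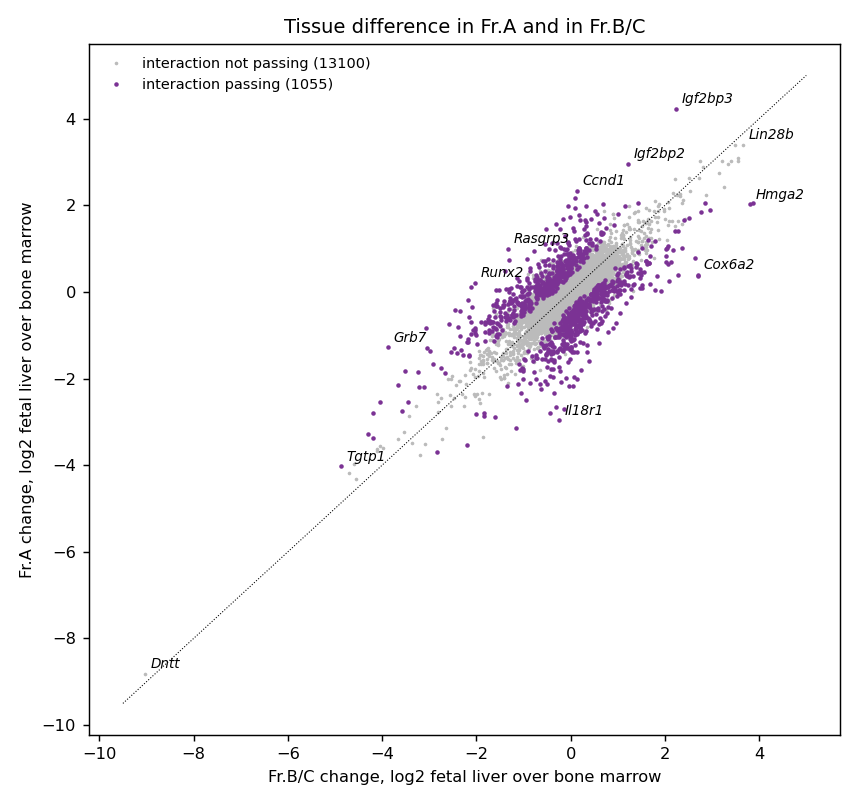
Change in Fr.A (vertical) against change in Fr.B/C (horizontal), both log2 fetal liver over bone marrow, for the tested genes with a symbol, in purple where the interaction passed (1055 genes) and in grey where it did not (13100), with equal change on the dotted line. Ccnd1 lies above the line and Il18r1 below, while the positions of Lin28b, at 3.40 in Fr.A, and Dntt rest on a dim and a saturated probe in bone marrow.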

How the data were processed

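Each sample was hybridised with the common reference on a 2-colour array, the sample in Cy5 for replicates 1 and 3 and in Cy3 for replicates 2 and 4. Per the file headers, the deposited scanner values are intensity per spot (mean signal and local background) and a log10 ratio of Cy5 over Cy3, made with Agilent Feature Extraction 8.5.1.1. The deposited table of log2 ratios was made by the authors with limma per the submitters' processing notes, with the version and normalization not given in the sources used here. Its column medians lie between -0.00726 and 0.0201, and it correlates with the ratios used here at r = 0.930 to 0.951 on the Fr.A arrays, so it served as an alternative.

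Intensities were background-corrected (normexp, offset 50), normalized by loess within arrays and turned to log2 sample over reference in limma 3.58.1 (R 4.3.3). Of 41174 probes, 27521 were kept, being well above background on at least 3 arrays of a group and usable on at least 12 of 16. The brightest probe stood for a gene. Other probes of named genes at times gave smaller changes, such as 0.41 for Pacsin1, -0.72 for Chdh and -0.07 for Tnrc6b. Names came from RefSeq accessions for 22072 probes and from the file's descriptions for others, and 14163 stayed unnamed. The limma model held 4 group means and the dye over all 16 arrays (11 residual degrees of freedom, empirical Bayes, Benjamini-Hochberg over all tested), and adjusted p-values are limma's throughout. Where a probe was not well above background or saturated on all arrays of a group, a lower bound is given, from the dimmest signal well above background (2-colour channel values, with dyes balanced). On simulated data for the Fr.A comparison (21297 genes, 200 of them changed), a share of 1 of the 4-fold and 0.881 of the 2-fold changes was recovered. The simulated noise was independent between arrays. The real arrays differed between sets and deviated together by sort, so these shares do not carry over to the real data. The number of arrays limits the precision.

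The comparison, its gene lists and the rule for naming genes were chosen with earlier results of these data known. The rule takes the 20 highest and 20 lowest passing genes with no overlap, up to 6 passing members of each list, all members of lists of up to 12, the 10 highest and 10 lowest interactions, and genes of the known fetal and B-lineage programmes. Alternatives changed the background, normalization, filter, probe rule, variance model, blocks, dyes and arrays used. Using either array set alone, leaving out fetal liver arrays 3 and 4, and the sort as a random block were added after seeing the data. Per the labels each sort gave 1 sample of either fraction. Same-numbered Fr.A and Fr.B/C arrays of a tissue deviated together (r = 0.30 to 0.56, in each case above any other number), so the numbers were taken to pair the fractions.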

Additional observations from a re-analysis of the deposited data

Results flagged for a closer look

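In 12 cases 1 array stood apart from the other 3 of its group, by the gap to the nearest as a share of the group's range. Both tissue groups of 185 of the named genes were screened, and chance flags about 1 in 20 groups. The 12 flags are fewer than that rate gives, so they are listed only as a description. In bone marrow it was array 1, on the high side, for Apoe (0.932), Birc5 (0.913), Ccnd1 (0.890) and Irf8 (0.867). In fetal liver array 1 was high for Cd163 (0.943) and low for Cd27 (0.918) and Cdkn1a (0.832). Fetal array 2 was high for Cd5 (0.879), Cd6 (0.892) and Hmga1 (0.968) and low for P2ry12 (0.883), and array 3 was high for Ccr9 (0.848). The groups of the 2 tissues stayed apart for all of these but Cd5.

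For many named genes the tissue difference in Fr.A was not that in Fr.B/C by limma's interaction test, each value being the log2 difference of the differences. The signalling receptors and homing molecules Il18r1 (-2.72), Cxcr6 (-2.56), Ccr6 (-2.06), Cxcr5 (-1.57), Itgb7 (-1.51), Il2rb (-1.26), Il12rb1 (-1.14) and Fut7 (-0.80) were lower in fetal Fr.A by more than in Fr.B/C. So were the NK and T cell genes Ccl5 (-2.34), Cd6 (-2.15), Tcf7 (-0.94) and Prf1 (-0.56), and the macrophage gene Cd163 (-2.35). The cytokine inhibitors Socs2 (-1.71) and Cish (-1.62), the hormone-related genes Rora (-1.35) and Fkbp5 (-0.94), the class II genes Cd74 (-1.27) and H2-Eb1 (-1.01), and Nod1 (-1.07) had the same sign. So had Chdh (-2.22), Igfbp7 (-2.14), S100a4 (-1.61), Myl10 (-1.33), Ly6a (-1.06), Phlda3 (-1.02), Dnajc6 (-0.86) and Gimap7 (-0.81). Cox6a2 (-2.30), Rpl39l (-1.83) and Hmga2 (-1.78) were negative with fetal liver above bone marrow by more in Fr.B/C than in Fr.A.

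Positive values came in part from genes higher in fetal Fr.A by more than in Fr.B/C, or in Fr.A alone. These were Ccnd1 (2.21), Cavin2 (2.08), P2ry12 (2.04), Igf2bp3 (2.00), Igf2bp2 (1.74), Apoe (1.74), Cxcr3 (1.69), Ccr9 (1.65), Csf1r (1.58), Pf4 (1.34) and Pacsin1 (1.29). Smaller ones were Mzb1 (1.23), Id3 (1.18), Dlk1 (1.04), Ube2c (0.70), Irf4 (0.68), St3gal6 (0.68), Jam3 (0.63) and Tpx2 (0.55). Rasgrp3 (2.33) and Fcrla (1.69) were higher in fetal Fr.A and lower in fetal Fr.B/C.

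Other positive values came from genes whose fetal level was lower by more in Fr.B/C. Grb7 (2.59) and Runx2 (2.24) led these. Interferon-response genes among them were Irf9 (1.19), Oas1a (0.99), Ifi47 (0.93), Tgtp1 (0.85), Ifi44l (0.81), Oasl1 (0.71) and Sp100 (0.68), with Irf8 (1.12). Casp4 (0.92), Casp1 (0.83), Gsdmd (0.50), Esr1 (1.02), Ptprc (0.91), Cd48 (0.76) and Cd27 (0.71) were others. Of the interactions in this section, those of Ptprc, Gsdmd, Tcf7, Gimap7, Prf1 and Pf4 lost their call in 15 to 19 of 26 alternative settings. The value of Cd93 (1.03) rests on a probe that was saturated on 3 of the 4 bone marrow Fr.A arrays, so it does not compare the fractions, and Rora was well above background on 1 fetal liver Fr.A array. Esr1 and Ifi44l were well above background on 2 fetal liver Fr.A arrays each. Their fetal means were 0.06 and -0.04 in Fr.A and -0.08 and -0.16 in Fr.B/C. Their bone marrow means were 3.34 and 3.35 in Fr.A and 4.22 and 4.03 in Fr.B/C, so most of their interaction came from the bone marrow side.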

How the results depend on the processing

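Of 168 named genes that passed in Fr.A, 135 kept their direction and call under all 27 alternatives. Of 70 passing interactions of named genes, 4 did so under the 26 alternatives that hold both fractions. The Cy3 arrays alone kept 4, the Cy5 arrays alone 14, median centring 39 and sets averaged 40, each other setting at least 51, and 63 to 68 were kept with 1 Fr.A array left out. The interactions of Ptprc (19 settings), Gsdmd and Tcf7 (18), Gimap7 and Prf1 (17) and Pf4 (15) were lost most often. For each of them most fits with 1 Fr.A array left out lost the call. In most settings at least 157 of the 168 kept their call. The Cy5 arrays alone lost 15 and the Cy3 arrays alone 20, and both have fewer samples. Without fetal liver arrays 3 and 4, 9 were lost. Against 6390 genes passing, 2662 higher, 3728 lower and 745 passing list members, the Cy5 arrays alone gave 2262, 814, 1448 and 389, and the Cy3 arrays alone 2066, 627, 1439 and 328. Array sets averaged with a set term gave 3930, 1547 and 2383. Median centring gave 4031 passing, of which 3779 also passed with loess and all these in the same direction, and 924 higher. The second array set alone gave 10019 passing and 4474 higher, and without fetal arrays 3 and 4 there were 1641 higher. The interaction, passing at 1614 genes, was the count most open to the settings. It was 1066 on processed scanner signals, 419 under median centring, 908 with scaling between arrays, 248 with sets averaged, 2922 with session as random block, 32 and 10 on Cy5 and Cy3 arrays alone, and 720 and 6766 in the first and second array set. The cause was not tested. Leaving out 1 Fr.A array at a time gave 5287 to 6171 passing, 2086 to 2567 higher, 3197 to 3604 lower, 654 to 727 list members and 1166 to 1665 interactions. With the replicate number as a block across tissues 7511 genes passed and 2569 interactions. Same-numbered arrays of the 2 tissues deviated together at r = 0.11, -0.16, 0.26 and 0.27, so across tissues they share only a number. With the sort as a random replicate block, pairing the fractions within a tissue, 3122 interactions and 6336 genes in Fr.A passed. Genes at least 2-fold apart numbered 1001, against 2283 on processed signals and 2022 in the deposited ratios. Of the genes that did not pass, Ddx3y was at -1.26 and Eif2s3y at -0.83 in the first array set alone, where both passed with the other sign. The interaction of Hmga2 was 0.26 with the mean of its probes, and on processed signals those of Dlk1 (-0.59), Jam3 (-0.27) and Myl10 (0.12) changed sign and did not pass. Counts of list members that moved by over 1.5 times and are not given above include, under median centring, the higher counts of B-lineage factors (6 to 2), cyclins and kinases (12 to 6), glycolysis (8 to 4), other let-7 targets (8 to 4) and recombination genes (4 to 1), and the lower counts of pre-B receptor signalling (7 to 3), plasmacytoid markers (7 to 4) and ribosomal proteins (5 to 1). Scaling between arrays took the lower count of lymphoid progenitor receptors from 6 to 3. Without fetal liver arrays 3 and 4 the higher counts of DNA replication (12 to 7), glycolysis (8 to 5), constitutive proteasome (10 to 4), macrophage (6 to 3) and megakaryocyte genes (5 to 3) were smaller. Dim probes bound the changes of Lin28b, Igf2bp1, Iigp1, Pgr, Mcpt8 and Rbp4, saturation that of Dntt, and 3 of 4 bone marrow arrays were saturated for Cd93.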
